A study of Mus musculus with 3 samples.

Results

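The comparison described here is that of a high with a low dose of PCB118 in mouse oocytes, made between the 2 exposed libraries of the study. The unit is FPKM, the number of fragments per kilobase of transcript relative to the size of the library. Values were summed per gene name, and genes that averaged 5 FPKM or more over the 2 libraries were kept, which gave 6472 members of 21853 gene names, themselves from 41310 rows. The log2 ratio of high over low dose was taken after adding 1 FPKM to each value, so it understates the change of genes of low level. A member was counted as higher or lower when this ratio was at least 1 in size, that is 2-fold. This is a limit on size, and nothing was tested.

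All libraries were made from total RNA of oocytes from 8 week old females of ICR, an outbred mouse strain. The high dose library came from mice exposed to a high dose of PCB118, the low dose library from mice exposed to a low dose, and the control library from mice with no exposure. No amounts are stated in the labels, and the title of the study sets the exposure in pregnancy and the measurement in oocytes of the offspring. Each group had 1 library, so no difference below has a replicate check, no p-value is given, and each statement is about these libraries rather than the doses. Whether a library pooled oocytes of several animals, and at which stage of meiosis they were taken, is not given in the sources used here.

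PCB118 is a polychlorinated biphenyl of the dioxin-like kind, which as a class bind the aryl hydrocarbon receptor. That receptor pairs with Arnt in the nucleus and binds a DNA element with the core GCGTG. A growing mouse oocyte stores mRNAs and proteins for the egg and the early embryo, and it stops transcription before meiosis resumes. From then on its mRNA levels are set by storage, polyadenylation and decay, and the stored products include the zona pellucida proteins, the kinase Mos that holds the egg at metaphase, and the enzymes that keep DNA methylation.

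Genes of the oocyte were abundant in all 3 libraries. The 14 listed genes of the oocyte marker list summed to 10249.6 FPKM at the high dose against 8669 FPKM at the low dose. Their sum was 11880.00 FPKM in control. Of the 14 genes, 7 had the higher value at the high dose and 7 at the low dose. The order of the sums therefore does not hold for each gene. Dppa3, whose product guards maternal DNA methylation after fertilisation, was the most abundant of them, at 5342 FPKM at the high dose against 4174 FPKM at the low dose. Markers of other cells were low. Those of granulosa and cumulus cells (12 of 17 listed) summed to 24.3 FPKM at the high dose, 29.5 FPKM at the low dose and 25.3 FPKM in control, of which Nr5a2 and Fshr made up most, while Amhr2 and Has2 were listed at 0 at the low dose. Those of theca and stroma (8 of 13 listed) summed to 2.75, 11.9 and 4.01 FPKM in the high dose, low dose and control libraries, with Col1a1 and Col1a2 listed at 0 at the low dose. Immune markers (4 of 12 listed) summed to 3.92, 7.93 and 9.68 FPKM, and endothelial markers (6 of 8) to 7.33, 11.3 and 6.39 FPKM, in the same order of libraries. Epithelial markers (6 of 9) summed to at most 23.1 FPKM in any library, and the 1 listed erythroid marker, Alas2, was at 0 at the high dose and in control. Markers of male germ cells (6 of 9 listed) summed to 19.8 FPKM at the high dose against 28.5 FPKM at the low dose, mostly Prm2 and Ldhc. The sums of granulosa, theca, immune, endothelial and male germ cell markers were thus lower at the high dose than at the low dose, but a few genes carried them. Of the listed markers 6 of 12 granulosa and 6 of 8 theca and stroma genes had the higher value at the high dose, and the theca sum was lower through Cyp11a1 and Lhcgr. The part of these markers in the differences below was not tested. In a bulk library fewer cells of a kind and less RNA per cell cannot be told apart. The depth worked out from the worth of 1 read was about 31500000 reads at the high dose, 27900000 at the low dose and 34700000 in control, so 5 FPKM over a transcript of 1 kb stood for about 157 reads at the high dose and 139 at the low dose. These figures cover counting error only.

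Most members lay close together at the 2 doses. Of the 6472 members, 4716 (72.9%) were within 1.5-fold, and the median log2 ratio was -0.05, with quartiles at -0.37 and 0.21. At the high dose 347 members were higher by 2-fold or more (5.36%) and 641 were lower by as much (9.9%), so 988 (15.3%) passed the rule in either direction, and 35.1% of these were higher. The excess of lower genes was also present at larger sizes. At 4-fold or more 148 genes were higher and 237 lower, at 8-fold or more 80 and 96, and at 16-fold or more 37 and 41. Genes just past the rule included Carhsp1, at 43.1 FPKM at the high dose against 21 FPKM at the low dose, and genes just short of it included Fbxo5, at 82.8 against 40.9 FPKM in the same libraries. The 5 genes just under the limit of 5 FPKM had means of 4.99 to 5.00 FPKM and log2 ratios of -1.01 to 3.16, and the 5 just over it had ratios of -0.25 to 1.21.

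**Figure D1:**
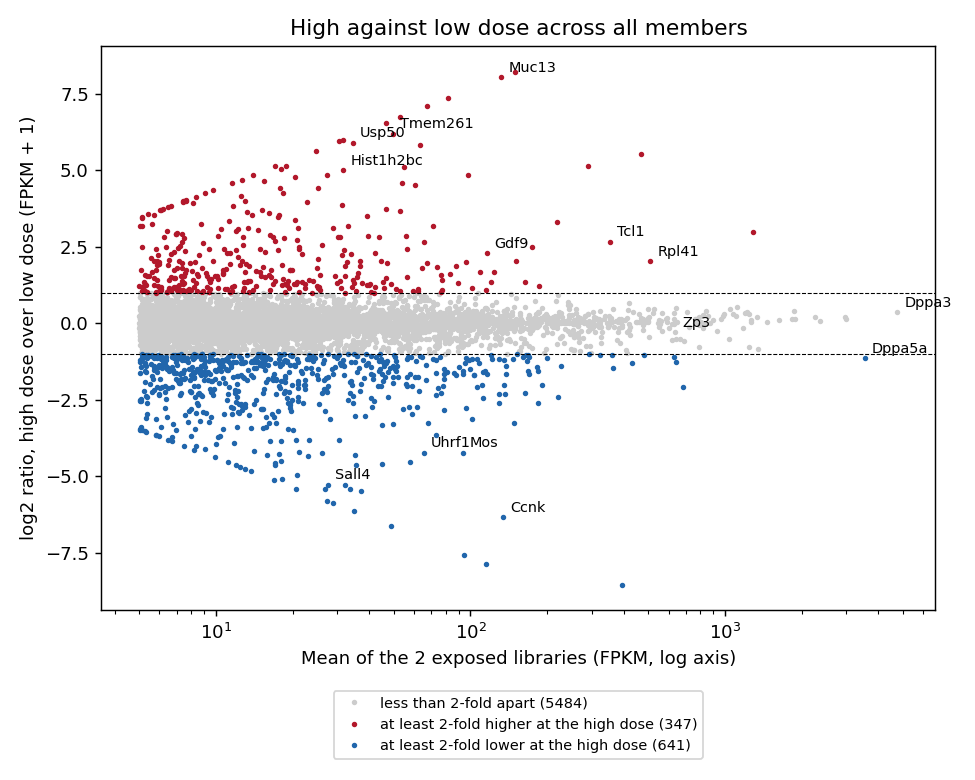
Each point is 1 of the 6472 members, with the mean FPKM of the high and low dose libraries on a log x axis and the log2 ratio of high over low dose on the y axis. Dashed lines mark the 2-fold rule, with 347 genes above the upper and 641 below the lower line, and the straight outer edges of the cloud are formed by genes that were near 0 in 1 of the 2 libraries.

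The largest positive ratios belonged to genes that were near 0 at 1 dose and well expressed at the other. Tmem261, named Dmac1 in human for its part in the assembly of respiratory complex I, was at 98.6 FPKM at the high dose against 0.348 FPKM at the low dose, with 105 FPKM in control (log2 ratio 6.21). Its reference gene lies on chromosome 4 at 75277354 to 75278305 (minus strand, GRCm38, GENCODE). Usp50, of the ubiquitin-specific protease family, was at 68.9 FPKM at the high dose against 0.162 FPKM at the low dose, with 77.6 FPKM in control (log2 ratio 5.91). Atf7, a transcription factor of the bZIP family, was at 117 FPKM at the high dose against 4.13 FPKM at the low dose, with 173 FPKM in control (log2 ratio 4.53). In these 3 genes the low dose library stood apart from both others.

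In a second set it was the high dose library that stood apart. Rpp38, a subunit of ribonuclease P, which trims precursor tRNAs, was at 108 FPKM at the high dose against 2.13 FPKM at the low dose, with 2.33 FPKM in control (log2 ratio 5.12; chromosome 2, 3328949 to 3332643, minus strand). Hgsnat, a lysosomal acetyltransferase of heparan sulfate breakdown, was at 40.5 FPKM at the high dose against 0.502 FPKM at the low dose, with 0.615 FPKM in control (log2 ratio 4.79). The histone H2B gene Hist1h2bc was at 62.2 FPKM at the high dose against 0.958 FPKM at the low dose, with 0.535 FPKM in control (log2 ratio 5.01). All 3 were near 0 in both other libraries. Fam46b, a poly(A) polymerase outside the canonical family, was at 30.7 FPKM at the high dose against 0.25 FPKM at the low dose, with 1.41 FPKM in control, and Tfap2e, the AP-2 epsilon transcription factor, at 35.1 FPKM at the high dose against 0.696 FPKM at the low dose, with 2.39 FPKM in control. Rraga, a Rag GTPase that signals amino acid supply to mTORC1 at the lysosome, was at 25.4 FPKM at the high dose against 0.664 FPKM at the low dose and was listed at 0 in control. It is a gene of 1 exon. For Trim13, a ubiquitin ligase of the endoplasmic reticulum, the control library lay between the doses, with 104 FPKM at the high dose against 3.34 FPKM at the low dose, with 16.6 FPKM in control (log2 ratio 4.60). The mitochondrial tRNA gene mt-Tp did likewise, at 49 FPKM at the high dose against 1.3 FPKM at the low dose, with 11.8 FPKM in control. Rn7s2, an RNA of the signal recognition particle, was at 16.7 FPKM at the high dose and 16.9 FPKM in control and had a value near 0 at the low dose.

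Among the largest negative ratios, Dytn, the gene of dystrotelin, was at 0.647 FPKM at the high dose against 73.4 FPKM at the low dose, with 0.268 FPKM in control (log2 ratio -5.50). Ccdc6, a coiled-coil gene known as a fusion partner of RET in human thyroid cancer, was at 0.591 FPKM at the high dose against 66.9 FPKM at the low dose, with 0.569 FPKM in control (log2 ratio -5.42). Akap8, a nuclear anchor of protein kinase A, was at 0.836 FPKM at the high dose against 34.6 FPKM at the low dose, with 0.653 FPKM in control (log2 ratio -4.28). In all 3 the low dose library alone was high. The thioesterase family gene Them7 had the same shape, at 0.596 FPKM at the high dose against 35.4 FPKM at the low dose and listed at 0 in control, and so did Dpm3, a subunit of the mannosyl donor synthase of glycosylation, at 0.401 FPKM at the high dose against 33.8 FPKM at the low dose, with 1.56 FPKM in control.

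The high dose library alone was low for a further set. Sall4, a zinc finger transcription factor of germ cells and pluripotent cells, was at 0.435 FPKM at the high dose against 54.6 FPKM at the low dose, with 42 FPKM in control (log2 ratio -5.28; chromosome 2, 168748332 to 168767943, minus strand). Bola1, a mitochondrial protein of iron-sulfur biology, was at 1.84 FPKM at the high dose against 69.3 FPKM at the low dose, with 63.6 FPKM in control (log2 ratio -4.63). For Parp12, Phf13, Tlk1, Ankrd39 and Uhrf1 control lay between the doses. Parp12, a mono-ADP-ribosyltransferase, was at 0.676 FPKM at the high dose against 63.7 FPKM at the low dose, with 10.4 FPKM in control. Phf13, a reader of methylated histone H3, was at 0.463 FPKM at the high dose against 33.6 FPKM at the low dose, with 13.8 FPKM in control, and Tlk1, a kinase that acts on the histone chaperone Asf1, at 3.89 FPKM at the high dose against 111 FPKM at the low dose, with 19.5 FPKM in control. Ankrd39 was at 1.24 FPKM at the high dose against 44.6 FPKM at the low dose, with 17.7 FPKM in control.

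**Figure D2:**
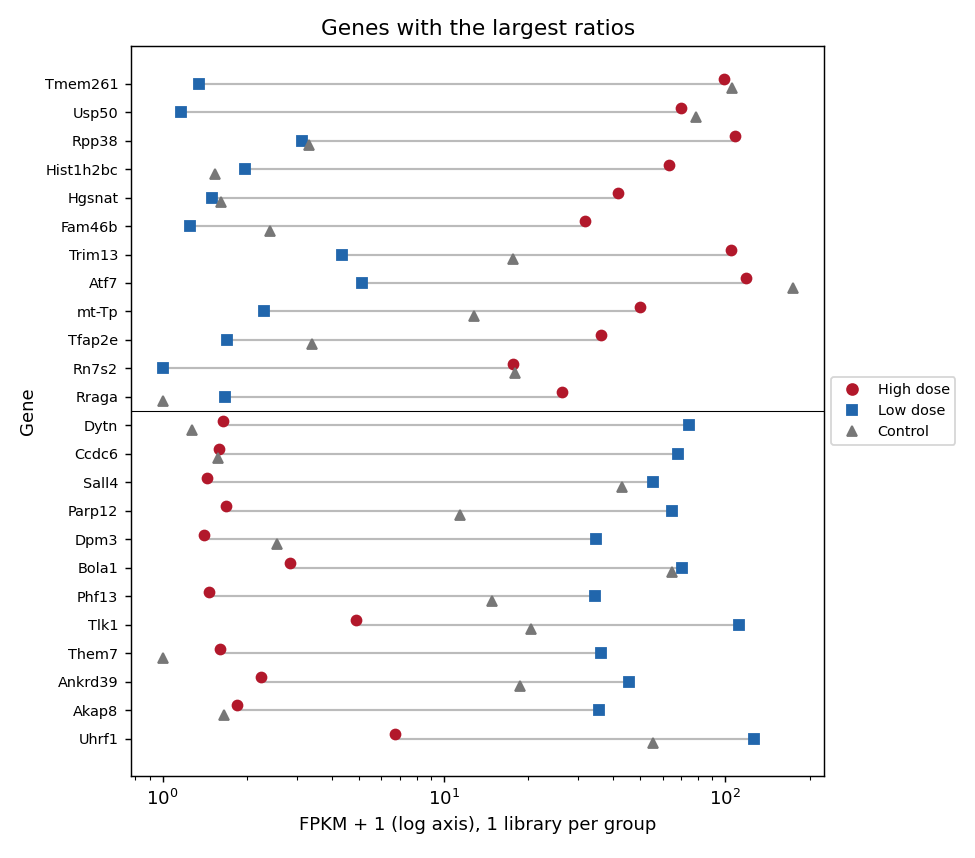
The 12 genes with the largest positive (upper part) and the 12 with the largest negative log2 ratios (lower part) that met the naming rule, with FPKM + 1 on a log x axis and 1 point per library. Grey lines join the high and low dose values, and the control value lies near the high dose for Tmem261, near the low dose for Sall4, and between them for Trim13 and Uhrf1.

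Some larger ratios rested on a value of exactly 0, which such a table can also give where an estimate failed, so the libraries' values stand alone with no fold. In each exposed library 25 members were listed at 0. Muc13, a transmembrane mucin of epithelia, was listed at 265 FPKM at the high dose, 0 at the low dose and 235 FPKM in control, while the 6 listed epithelial markers summed to 23.1, 22.8 and 14.7 FPKM in the high dose, low dose and control libraries, most of it from Cdh1. Pcbp1, an RNA-binding protein encoded by 1 exon, was listed at 0 at the high dose and in control and at 97.1 FPKM at the low dose. The mitochondrial tRNA gene mt-Tf was listed at 69.4 FPKM at the low dose and at 0 in the other libraries. The clone-named gene RP23-184H3.5 was listed at 54.8 FPKM at the low dose and at 0 in the others. Processed pseudogenes of ribosomal proteins appeared on both sides. Rpl5-ps1, Rpl30-ps9 and Rpl36a-ps3 were listed at 93.1, 63 and 60.8 FPKM at the high dose and at 0 at the low dose, and Rps13-ps1 at 0 at the high dose against 231 FPKM at the low dose. Reads of such copies cannot be safely told from those of their parent genes. Of 2 further genes the largest row was at 0 at 1 dose. Uevld, which joins a ubiquitin conjugation fold with a lactate dehydrogenase fold, was at 125 FPKM at the high dose against 1.24 FPKM at the low dose, with 54.4 FPKM in control, of which a row with 122 FPKM at the high dose was at 0 at the low dose. Ccnk, the cyclin of the transcription kinases Cdk12 and Cdk13, was at 2.31 FPKM at the high dose against 265 FPKM at the low dose, with 75.6 FPKM in control. Its larger row was listed at 0 at the high dose against 262 FPKM at the low dose, whereas the smaller row held 2.31 against 3.51 FPKM.

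The abundant genes past the rule included a pair of partners of poly(A)-binding protein. Paip1 promotes and Paip2 represses translation, and both genes were higher. Paip1 was at 399 FPKM at the high dose against 39.3 FPKM at the low dose, with 193 FPKM in control (log2 ratio 3.31), and Paip2 at 243 FPKM at the high dose against 58.3 FPKM at the low dose, with 83.5 FPKM in control (log2 ratio 2.04). Rpl41, of the large ribosomal subunit, was at 814 FPKM at the high dose against 199 FPKM at the low dose, with 566 FPKM in control (log2 ratio 2.02). The low dose library was the lowest in all 3. Lamtor5, a subunit of the Ragulator complex that anchors mTORC1 to lysosomes, was at 259.9 FPKM at the high dose against 112 FPKM at the low dose, with 156 FPKM in control. The ubiquitin ligase Rnf216 was at 235 FPKM at the high dose against 92.5 FPKM at the low dose, with 56 FPKM in control, and C87977, of the Prame-like family with many near copies, at 296 FPKM at the high dose against 51.4 FPKM at the low dose, with 93.8 FPKM in control. The lincRNAs Gm43269 and 1700018B24Rik were at 2284 and 566 FPKM at the high dose against 287 and 15 FPKM at the low dose. Gm8797, of 1 exon, was at 913 against 18.6 FPKM at the 2 doses and listed at 0 in control.

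The most abundant lower gene was Dppa5a, an RNA-binding KH domain protein of pluripotent cells, at 2198 FPKM at the high dose against 4869.7 FPKM at the low dose, with 3443 FPKM in control (log2 ratio -1.15). Cox6a1, a subunit of cytochrome oxidase, was at 195 FPKM at the high dose against 533 FPKM at the low dose, with 217 FPKM in control (log2 ratio -1.44). The lincRNA 1700047G03Rik was at 1.12 FPKM at the high dose against 787 FPKM at the low dose, with 423 FPKM in control (log2 ratio -8.54), so here the high dose library alone was near 0. Pcdh15, a protocadherin of inner ear hair cells, was spread over 15 rows and summed to 258 FPKM at the high dose against 1109 FPKM at the low dose, with 128 FPKM in control. The pseudogene Vmn2r-ps127 was at 376 FPKM at the high dose against 905 FPKM at the low dose, with 352 FPKM in control, Mypop, a Myb-related repressor, at 399.6 FPKM at the high dose against 865 FPKM at the low dose, with 238 FPKM in control, and Gm20532 at 249 FPKM at the high dose against 613 FPKM at the low dose, with 4.07 FPKM in control. Foxn3, a forkhead repressor, Ddx20, a helicase of the complex that builds spliceosomal particles, and 5330417C22Rik had log2 ratios of -1.03, -1.04 and -1.04. These 3 were no longer past the rule under each of 3 other scalings of the libraries.

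Most oocyte factor genes were within 1.5-fold at the 2 doses, while the growth factors Gdf9 and Bmp6, the maternal-effect gene Trim28 and genes of the Tcl1 cluster were past the rule. Of 27 members of the oocyte factor list 23 were within 1.5-fold, 1 was higher and 1 lower (7.41% past the rule, against 15.3% of all members), with a median log2 ratio of 0.00. The higher one was Gdf9, a growth factor through which the oocyte acts on its follicle cells, at 193 FPKM at the high dose against 38.5 FPKM at the low dose, with 661 FPKM in control (log2 ratio 2.29). Its libraries were thus spread widely, with the low dose lowest and control highest. The lower one was Bmp6, a related ligand, at 3.62 FPKM at the high dose against 17 FPKM at the low dose, with 0.945 FPKM in control (log2 ratio -1.96). Bmp15, the partner of Gdf9, was at 15.8 FPKM at the high dose against 18.7 FPKM at the low dose, with 4.27 FPKM in control (log2 ratio -0.23). The larger of its 2 rows had a log2 ratio of -1.23, past the rule as lower, so the sum does not describe each row. The zona pellucida genes Zp1, Zp2 and Zp3 had log2 ratios of -0.18, -0.10 and -0.29. Figla, the transcription factor of the zona genes, was at 41.8 FPKM at the high dose against 73.4 FPKM at the low dose, with 95.8 FPKM in control and Nobox, an oocyte homeobox factor, at 112 FPKM at the high dose against 67.4 FPKM at the low dose, with 57.1 FPKM in control, both short of the rule. The Nlrp family, which includes Nlrp5 of the subcortical maternal complex, had 0 of 11 members past the rule and a median of 0.07. The Obox and Oog genes, oocyte homeobox and leucine-rich repeat families of near copies, had 0 of 7 past the rule and a median of 0.30. Of 22 maternal-effect genes 2 were higher and 0 lower (9.09%, median 0.03), Tcl1 and Trim28, both described below.

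The Tcl1 cluster of chromosome 12 holds Tcl1, a coactivator of the kinase Akt that is needed in early embryos, and its Tcl1b relatives. Of its 5 members 3 were higher and 0 lower (60% past the rule, against 15.3% of all members). The median log2 ratio was 1.15, against -0.05 for all members. Tcl1 was at 609 FPKM at the high dose against 95.3 FPKM at the low dose, with 202 FPKM in control (log2 ratio 2.66), with the high dose library highest. Tcl1b2 was at 154 FPKM at the high dose against 37.9 FPKM at the low dose, with 205 FPKM in control (log2 ratio 1.99) and Tcl1b5 at 9.71 FPKM at the high dose against 3.82 FPKM at the low dose, with 14.7 FPKM in control (log2 ratio 1.15), with the low dose library lowest in both. Tcl1b4 and Tcl1b1 lay between these genes on the chromosome and had ratios of 0.19 and 0.10, so neighbours did not share 1 ratio. The Tcl1b genes are tandem relatives, and how reads were divided between them by the authors is not given in the sources used here. Shown next are the sequences before the starts of Tcl1 and Tcl1b2, the pair of the cluster with the largest ratios. They are RefSeq sequences of GRCm38, written 5′ to 3′ on the gene's strand, without bases that GENCODE annotates as exon.
Tcl1, chr12:105222794-105222987, minus strand: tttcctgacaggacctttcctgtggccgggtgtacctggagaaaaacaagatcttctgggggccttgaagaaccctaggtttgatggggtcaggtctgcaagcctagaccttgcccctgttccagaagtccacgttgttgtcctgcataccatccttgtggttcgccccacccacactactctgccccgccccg
Tcl1b2, chr12:105146769-105147018, plus strand: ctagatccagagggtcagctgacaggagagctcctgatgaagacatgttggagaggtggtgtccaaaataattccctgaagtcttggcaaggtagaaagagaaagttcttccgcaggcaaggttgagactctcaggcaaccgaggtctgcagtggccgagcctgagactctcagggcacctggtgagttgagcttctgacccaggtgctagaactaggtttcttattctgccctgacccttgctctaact
The core of the dioxin response element, GCGTG on either strand, would be in capitals, and in the 250 bases before either start it was not found. Among all 32851 RefSeq windows of 250 bases before a gene's start, 28.2% held it. A missing core says only that these letters are not in the window.

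Meiotic lists other than that of Mos had shares past the rule below the 15.3% of all members, and Mos was far apart. Of 27 members of the anaphase-promoting complex and spindle checkpoint list 1 was past the rule (3.7%, median 0.07). This was Cdc26, a small subunit of that complex (log2 ratio -1.11). It was at 3.92 FPKM at the high dose against 9.6 FPKM at the low dose, with 4.92 FPKM in control. Of 22 Aurora kinase and spindle genes 0 were past the rule (median -0.18), and the largest ratio was that of Prc1, a crosslinker of the central spindle, at -0.73. Of 19 cyclin and cyclin-dependent kinase genes 1 was lower (5.26%, median -0.03). This was Ccna2, cyclin A2, at 4.81 FPKM at the high dose against 16.1 FPKM at the low dose, with 5.2 FPKM in control (log2 ratio -1.56). Ccnb1, cyclin B1, was at 142 against 119.9 FPKM at the high and low doses, and its kinase Cdk1 at 16.3 against 17.3 FPKM.

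Mos, the kinase that starts the MAP kinase cascade of the egg and with it the arrest at metaphase, was at 8.57 FPKM at the high dose against 178 FPKM at the low dose, with 9.36 FPKM in control (log2 ratio -4.22). The low dose library alone was high. The gene has 1 exon in the reference (chromosome 4, 3870657 to 3872105, minus strand), and nearly all of the value came from 1 of its 2 rows, at 8.16 against 177 FPKM. Of the 7 members of the Mos and MAP kinase list 2 were lower and 0 higher (28.6%, against 15.3% of all members, median -0.36). The other was Dusp1, a phosphatase of MAP kinases, at 1.81 FPKM at the high dose against 10.8 FPKM at the low dose, with 10.1 FPKM in control (log2 ratio -2.06). The meiotic recombination partners Msh4 and Msh5 were both lower, at 7.07 and 22 FPKM at the high dose against 27.2 and 89.2 FPKM at the low dose (log2 ratios -1.81 and -1.97). They were the only 2 past the rule of 17 members (11.8%) of the cohesin and synapsis list, whose median was 0.00. Of 8 genes of the cyclic AMP arrest and of 15 genes of calcium signals at egg activation 0 were past the rule. Lists this small would hold few such genes at the share of all members.

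**Figure D3:**
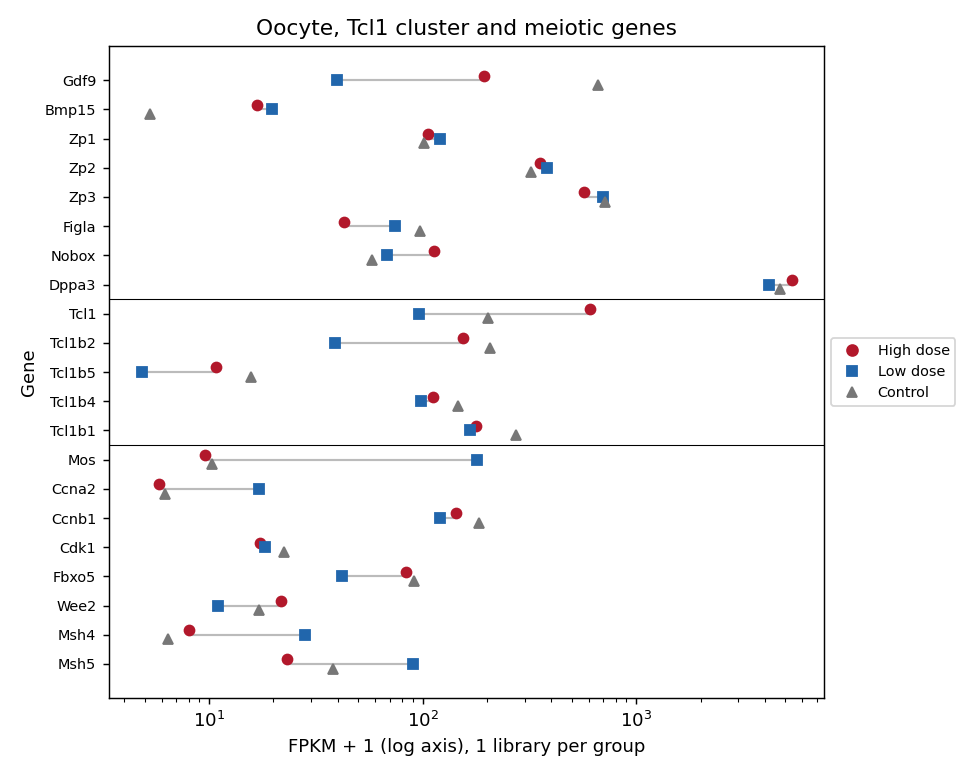
FPKM + 1 on a log x axis in each library for oocyte genes (top part), the Tcl1 cluster (middle part) and meiotic genes (bottom part), with grey lines between the high and low dose values. Zp1 to Zp3, Ccnb1 and Cdk1 have their 3 points close together, whereas Gdf9, Tcl1 and Mos do not.

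Chromatin genes held some of the highest shares past the rule. Of 14 histone methylation enzymes 7 were past it (50%, against 15.3% of all members), 2 higher and 5 lower, with a median of -0.33. Kmt5a, the methyltransferase of histone H4 lysine 20, was at 1.88 FPKM at the high dose against 39.4 FPKM at the low dose, with 2.84 FPKM in control (log2 ratio -3.81). Smyd3, a SET domain methyltransferase, was at 9.09 FPKM at the high dose against 57 FPKM at the low dose, with 15.1 FPKM in control (log2 ratio -2.52). Ehmt1, a partner of the H3 lysine 9 enzyme G9a, was at 5.18 FPKM at the high dose against 20.5 FPKM at the low dose, with 10.2 FPKM in control, Suv39h2, another H3 lysine 9 enzyme, at 7.61 FPKM at the high dose against 23.5 FPKM at the low dose, with 18.5 FPKM in control, and Kmt2c, of H3 lysine 4, at 3.28 FPKM at the high dose against 9.1 FPKM at the low dose, with 5.57 FPKM in control. In these 5 genes the low dose library was the highest. Kdm4c, a demethylase of H3 lysine 9, was higher, at 9.83 FPKM at the high dose against 1.91 FPKM at the low dose, with 1.18 FPKM in control (log2 ratio 1.90), and so was Setd2, the methyltransferase of H3 lysine 36 that shapes the methylome of the oocyte, at 34.2 FPKM at the high dose against 12.3 FPKM at the low dose, with 6.5 FPKM in control (log2 ratio 1.41). The lower genes rested in part on single rows. For Kmt5a 1 row was at 0.802 against 38 FPKM and the other at 1.07 against 1.44 FPKM.

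Other chromatin lists were nearer to all members. Of 18 Polycomb genes 0 were higher and 3 lower (16.7% past the rule, median -0.14), with Rnf2, the ubiquitin ligase of histone H2A, at 1.37 FPKM at the high dose against 16.5 FPKM at the low dose, with 2.12 FPKM in control (log2 ratio -2.89). Another of the 3, Cbx2, at 4.49 against 13.6 FPKM, was no longer past the rule on its largest row alone. The third, Jarid2, had a log2 ratio of -1.01 and was short of the rule under each other scaling. Of 22 remodelling genes 1 was higher and 2 lower (median -0.21), including Smarcc1, a core subunit of the BAF complex, at 6.32 FPKM at the high dose against 44.5 FPKM at the low dose, with 8.35 FPKM in control (log2 ratio -2.64). Of 22 histone acetylation genes 0 were higher and 2 lower (median -0.05), with the acetyltransferase Kat6a at 1.55 FPKM at the high dose against 11.1 FPKM at the low dose, with 5.64 FPKM in control, whose larger row was listed at 0 at the high dose. Of 70 zinc finger genes of the Zfp names 4 were higher and 11 lower (21.4%, median -0.10), led by Zfp13 at 4.94 FPKM at the high dose against 51.2 FPKM at the low dose, with 12.9 FPKM in control and Zfp958 at 54.6 FPKM at the high dose against 6.92 FPKM at the low dose, with 37.9 FPKM in control. The 6 genes of 2-cell embryos were all within 1.5-fold. Of 15 imprinted genes 1 was higher and 1 lower (13.3%, median -0.09), the zinc finger factor Plagl1, at 16.2 FPKM at the high dose against 3.24 FPKM at the low dose, with 12.3 FPKM in control, and Usp29, at 26.7 FPKM at the high dose against 66.3 FPKM at the low dose, with 13.8 FPKM in control.

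Histone genes were divided. Of 15 members 4 were higher and 1 lower (33.3% past the rule, against 15.3% of all members), while the median was -0.17. Beside Hist1h2bc, the linker histone H1f0 was at 33.5 FPKM at the high dose against 1.93 FPKM at the low dose, with 48.5 FPKM in control (log2 ratio 3.56) and the H2A variant H2afj at 60.2 FPKM at the high dose against 5.76 FPKM at the low dose, with 49.9 FPKM in control (log2 ratio 3.18), with the low dose library alone low in both. H2afx, whose product marks DNA breaks, was at 14.9 FPKM at the high dose and listed at 0 at the low dose, and it had no row in the control table. Hist1h2bj was lower, at 2.22 FPKM at the high dose against 21.1 FPKM at the low dose, with 3.41 FPKM in control (log2 ratio -2.78). Histone genes have near-identical copies, so reads may have been split among them.

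Among DNA methylation genes Uhrf1 stood far apart. Of 15 members 2 were higher and 1 lower (20%, against 15.3% of all members), with a median of -0.16. Dnmt1, which keeps methylation at replication, was at 56.5 FPKM at the high dose against 63.1 FPKM at the low dose, with 62.9 FPKM in control, Dnmt3a, which sets it in oocytes, at 7.41 FPKM at the high dose against 9.4 FPKM at the low dose, with 4.67 FPKM in control, and its cofactor Dnmt3l at 13.6 FPKM at the high dose against 14.3 FPKM at the low dose, with 14.9 FPKM in control, with log2 ratios of -0.16, -0.31 and -0.07. Uhrf1, which brings Dnmt1 to half-methylated DNA, was at 5.72 FPKM at the high dose against 126 FPKM at the low dose, with 54.6 FPKM in control (log2 ratio -4.24). It was listed in 1 row, and the reference gene spans 56303321 to 56323486 on chromosome 17 (plus strand, 17 exons). Trim28, the corepressor of imprinted loci, was at 75.7 FPKM at the high dose against 18.4 FPKM at the low dose, with 55.5 FPKM in control (log2 ratio 1.99), of which 1 row was at 58.1 FPKM at the high dose and listed at 0 at the low dose and another at 16.3 against 18.4 FPKM. Apex1, an endonuclease of base excision repair, was at 12.9 FPKM at the high dose against 5.78 FPKM at the low dose, with 26.3 FPKM in control (log2 ratio 1.04, short of the rule once adjusted for transcript length). The sequences before both RefSeq starts of Uhrf1 are shown because this gene had the largest ratio of the list and the starts differ in the dioxin response core, which is in capitals.
Uhrf1, first start, chr17:56303087-56303320, plus strand: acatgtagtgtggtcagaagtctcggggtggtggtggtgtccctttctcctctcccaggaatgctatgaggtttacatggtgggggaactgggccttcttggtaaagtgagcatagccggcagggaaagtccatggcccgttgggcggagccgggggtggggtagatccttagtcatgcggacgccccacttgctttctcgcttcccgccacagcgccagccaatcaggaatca
Uhrf1, second start, chr17:56304063-56304312, plus strand: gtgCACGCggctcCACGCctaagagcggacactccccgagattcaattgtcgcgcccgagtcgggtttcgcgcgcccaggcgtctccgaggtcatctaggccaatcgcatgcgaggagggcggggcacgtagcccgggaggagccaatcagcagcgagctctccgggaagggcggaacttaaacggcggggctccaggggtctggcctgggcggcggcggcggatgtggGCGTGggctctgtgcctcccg
In the 250 bases before the second start the core was found 3 times over both strands, and before the first start it was not found. These matches are letters in a window, not sites. A window of RefSeq was matched to 4664 members (72.1%), too few for a comparison of promoters over the members.

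**Figure D4:**
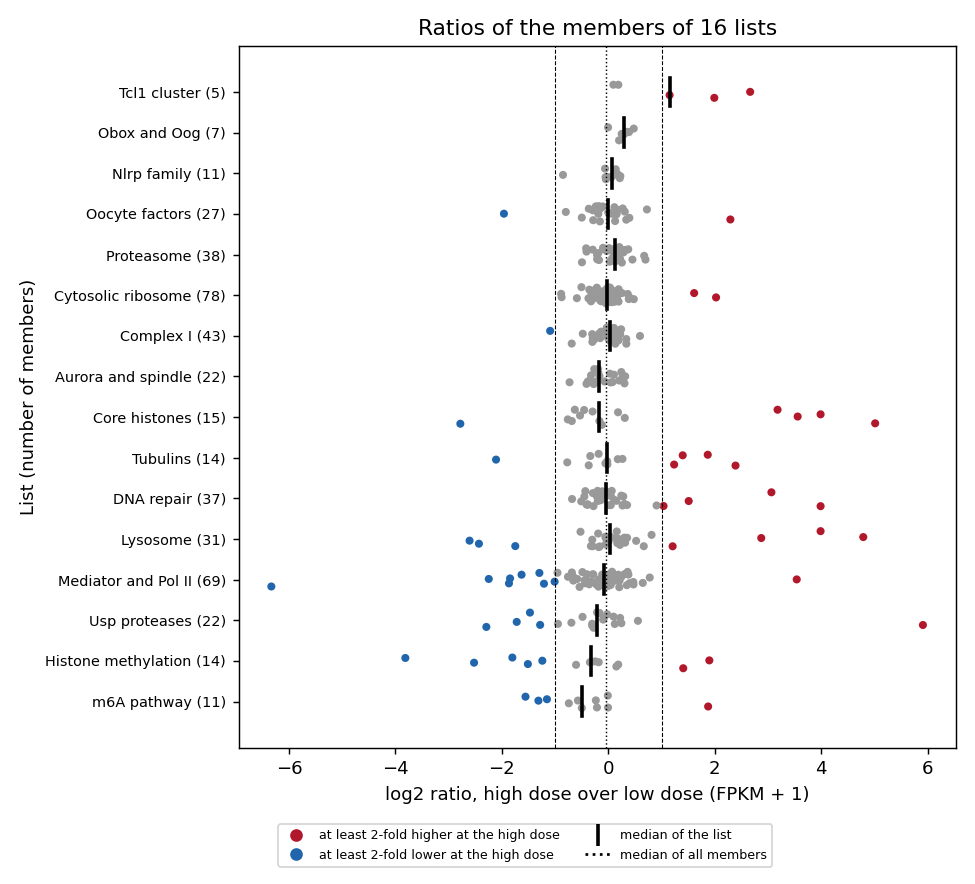
Log2 ratios of high over low dose (x axis) for the members of 16 lists, with 1 point per gene, a bar at the median of the list and a dotted line at the median of all members. The 38 proteasome and 22 Aurora and spindle genes stay between the dashed lines of the 2-fold rule. Beyond these lines lie 7 of 14 histone methylation genes and 5 of 15 histone genes. The list labelled core histones also holds linker histones, such as H1f0.

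Genes of RNA modification and transcription past the rule were mostly lower, as were those of all members, of which 5.36% were higher and 9.9% lower. Of 11 genes of m6A, the methyl mark on mRNA adenosines, 1 was higher and 3 lower (36.4% past the rule), and the median was -0.50. Wtap, a subunit of the methyltransferase, was at 85.3 FPKM at the high dose against 253 FPKM at the low dose, with 72.2 FPKM in control (log2 ratio -1.56), and the reader Igf2bp1 at 25.9 FPKM at the high dose against 65.9 FPKM at the low dose, with 0.441 FPKM in control (log2 ratio -1.31). In both the low dose library was the highest. The third lower member was 1110037F02Rik, at 4.66 FPKM at the high dose against 11.6 FPKM at the low dose, with 4.48 FPKM in control. Alkbh5, a demethylase of this mark, was higher, at 139 FPKM at the high dose against 37.1 FPKM at the low dose, with 69.1 FPKM in control (log2 ratio 1.88). Of 69 genes of the mediator, general factors and RNA polymerase II 1 was higher and 8 lower (13%, median -0.08). Beside Ccnk, its partners Cdk12 and Cdk13 were at 2.83 and 28.6 FPKM at the high dose against 13 and 105 FPKM at the low dose, where the largest row of Cdk12 was listed at 0 at the high dose, and Supt16, of the histone chaperone FACT, at 8.83 FPKM at the high dose against 45.6 FPKM at the low dose, with 26 FPKM in control. Med26, which links mediator to elongation factors, was the higher one, at 11.4 FPKM at the high dose against 0.064 FPKM at the low dose, with 0.055 FPKM in control (log2 ratio 3.54).

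Of 121 spliceosome and RNA-binding genes 2 were higher and 9 lower (9.09%, median -0.07), a smaller share past the rule than the 15.3% of all members. Lsm10, a subunit of the particle that processes histone mRNA, was at 27 FPKM at the high dose against 268 FPKM at the low dose, with 30.9 FPKM in control (log2 ratio -3.26), and the helicase Ddx31 at 43 FPKM at the high dose against 216 FPKM at the low dose, with 15.1 FPKM in control (log2 ratio -2.30). Both had the low dose library alone high. Sf3b5, of the U2 particle, was listed at 24.1 FPKM at the low dose and at 0 in the other libraries, and Hnrnpa0 at 23.1 FPKM at the high dose and at 0 at the low dose. Of 36 nuclear pore and transport genes 1 was higher and 5 lower (16.7%, median -0.06). The higher one was Nup205, of the inner ring of the pore, at 95.3 FPKM at the high dose against 16.9 FPKM at the low dose, with 58 FPKM in control (log2 ratio 2.43), and the lower ones included the importins Ipo8, at 3.66 FPKM at the high dose against 18.9 FPKM at the low dose, with 7.2 FPKM in control, and Kpna1, at 1.96 FPKM at the high dose against 14.6 FPKM at the low dose, with 1.36 FPKM in control. The largest row of Kpna1 was listed at 0 at the high dose.

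Lists of mRNA storage and decay had shares past the rule near or below the 15.3% of all members. Of 26 members of the storage and polyadenylation list 3 were higher and 1 lower (15.4%, median -0.08). Cpsf4, a subunit of the cleavage and polyadenylation factor, was at 87.9 FPKM at the high dose against 5.62 FPKM at the low dose, with 3.88 FPKM in control (log2 ratio 3.75), but of its 2 rows 1 was at 85.5 against 0.095 FPKM and the other at 2.37 against 5.52 FPKM at the high and low doses. Papolg, a poly(A) polymerase, was at 18.7 FPKM at the high dose against 2.69 FPKM at the low dose (log2 ratio 2.42). Eif4enif1, which binds the cap-binding protein and represses maternal mRNAs, was at 25.7 FPKM at the high dose against 3.96 FPKM at the low dose, with 17 FPKM in control (log2 ratio 2.43). For Eif4enif1 the low dose library alone was low. Stau1, a carrier of double-stranded RNA, was lower, at 6.95 FPKM at the high dose against 18.6 FPKM at the low dose, with 13.8 FPKM in control. Of 25 deadenylation and decay genes 1 was higher and 0 lower (4%, median 0.01), namely Tob2, an adaptor of the deadenylase, at 22.7 FPKM at the high dose against 0.66 FPKM at the low dose, with 12.5 FPKM in control (log2 ratio 3.84). Of 11 small RNA genes 0 were past the rule, and Dicer1, the nuclease that makes small RNAs, had a log2 ratio of -0.96.

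Genes of the translation machinery were close together at the 2 doses. Of 78 cytosolic ribosomal protein genes 73 were within 1.5-fold, 2 were higher and 0 lower (2.56%), with a median of -0.03. The 2 were Rpl41 and Rpl26, the second at 126 FPKM at the high dose against 40.4 FPKM at the low dose, with 38 FPKM in control (log2 ratio 1.61). Ribosomal protein genes have many processed copies that can take up reads. Of 53 translation factors 1 was higher, which was Eif4enif1 again, and 2 were lower (5.66%, median -0.09), namely Eif2a at 5.38 FPKM at the high dose against 19.6 FPKM at the low dose, with 3.83 FPKM in control and Eif3b, of the scaffold factor eIF3, at 2.95 FPKM at the high dose against 11.5 FPKM at the low dose, with 4.56 FPKM in control. Among the aminoacyl-tRNA synthetase genes Tars2, the mitochondrial threonine enzyme, was lower at 12.6 FPKM at the high dose against 29.2 FPKM at the low dose, with 25.7 FPKM in control.

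Proteasome genes were all less than 2-fold apart. Of 38 members 36 were within 1.5-fold, and the median log2 ratio was 0.12, with 27 of them above 0. Psma5, of the core particle, had the largest ratio, at 0.70. Deubiquitinases varied more than proteasome genes. Of 22 Usp genes 1 was higher and 4 lower (22.7%, against 15.3% of all members, median -0.20), with Usp50 above and Usp48 below. Usp48 was at 4.54 FPKM at the high dose against 26.1 FPKM at the low dose, with 9.37 FPKM in control, and its larger row was listed at 0 at the high dose. Of 42 F-box genes 1 was higher and 3 lower (9.52%, median 0.15), with Fbxo36 at 25.8 FPKM at the high dose against 128 FPKM at the low dose, with 27.6 FPKM in control (log2 ratio -2.27). Of 36 ubiquitin-conjugating and modifier genes 1 was higher and 3 lower (11.1%, median 0.07), among them the modifier Sumo2, at 59.2 FPKM at the high dose against 138 FPKM at the low dose, with 50.3 FPKM in control.

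Lysosomal genes were split in both directions. Of 31 members 4 were higher and 3 lower (22.6%, against 15.3% of all members, median 0.04). Beside Hgsnat and Rraga, the galactosidase Gla was higher, at 29.6 FPKM at the high dose against 3.17 FPKM at the low dose, with 0.121 FPKM in control (log2 ratio 2.87), with the high dose library alone high. Lamp1, a main protein of the lysosomal membrane, was lower, at 4.77 FPKM at the high dose against 34.2 FPKM at the low dose, with 31.5 FPKM in control (log2 ratio -2.61), with the high dose library alone low. Manba, the beta-mannosidase, was at 34.4 FPKM at the high dose against 189.8 FPKM at the low dose, with 14.1 FPKM in control (log2 ratio -2.43). A pair of subunits of the same complex stood in opposite order, with Lamtor5 higher and Lamtor4 lower, at 20.7 FPKM at the high dose against 72 FPKM at the low dose, with 63.8 FPKM in control. In the unfolded protein response, Atf4, its translationally controlled transcription factor, was at 5.64 FPKM at the high dose against 31.5 FPKM at the low dose, with 21 FPKM in control (log2 ratio -2.29), and Ddit3, a target of Atf4 known as CHOP, was at 39.3 FPKM at the high dose against 10.6 FPKM at the low dose, with 57.8 FPKM in control (log2 ratio 1.80). These were the only 2 of 17 members past the rule. Of 48 chaperone genes 3 were higher and 1 lower (8.33%, median -0.03), and of 18 autophagy genes Lamp1 alone was past the rule.

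Respiratory chain genes were steady, with single subunits apart. Of 43 complex I genes 1 was lower (2.33%, median 0.03), Ndufb3, at 108 FPKM at the high dose against 232 FPKM at the low dose, with 257 FPKM in control (log2 ratio -1.09, short of the rule once the libraries were scaled to equal summed FPKM). Of 57 genes of complexes II to V 2 were higher and 4 lower (10.5%, median -0.02). Uqcrfs1, the Rieske iron-sulfur protein of complex III, was at 0.598 FPKM at the high dose against 27.6 FPKM at the low dose, with 0.152 FPKM in control, whose larger row was listed at 0 at the high dose. Atpif1, the inhibitor of the ATP synthase, was at 74.7 FPKM at the high dose against 308 FPKM at the low dose, with 295 FPKM in control (log2 ratio -2.03), with the high dose library alone low, and Coa7, an assembly factor of cytochrome oxidase, was higher, at 60.01 FPKM at the high dose against 13.8 FPKM at the low dose, with 40.2 FPKM in control (log2 ratio 2.04). Of 70 mitochondrial ribosome genes 3 were higher and 4 lower (10%, median 0.11), with Mrpl36 at 0.34 FPKM at the high dose against 19.6 FPKM at the low dose, with 23.8 FPKM in control and Mrpl57 at 4.06 FPKM at the high dose against 35.5 FPKM at the low dose, with 39.6 FPKM in control, both with the high dose library alone low. Opa1, which fuses inner mitochondrial membranes, was higher, at 19 FPKM at the high dose against 6.82 FPKM at the low dose, with 6.27 FPKM in control (log2 ratio 1.35), among 1 higher and 1 lower of 21 genes of mitochondrial dynamics and import (9.52%, median -0.03). Of 13 mitochondrial carriers 1 was higher and 1 lower (15.4%, median -0.04), with Slc25a43 at 1.94 FPKM at the high dose against 29.6 FPKM at the low dose, with 12.8 FPKM in control. Among mitochondrially encoded RNAs, mt-Co1 was at 7.61 FPKM at the high dose against 7.99 FPKM at the low dose, with 19.1 FPKM in control, and the ribosomal RNA mt-Rnr2 at 849 FPKM at the high dose against 1216 FPKM at the low dose, with 809 FPKM in control (log2 ratio -0.52).

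Metabolic and antioxidant genes gave few calls. Of 27 glycolysis and citric acid cycle genes 1 was higher (3.7%, median 0.06), Mpc1, a subunit of the mitochondrial pyruvate carrier, at 35.5 FPKM at the high dose against 15.1 FPKM at the low dose, with 28.1 FPKM in control (log2 ratio 1.18). Of 26 antioxidant genes 1 was lower (3.85%, median 0.08), the glutaredoxin Glrx, at 51.5 FPKM at the high dose against 318 FPKM at the low dose, with 521 FPKM in control (log2 ratio -2.60), with the high dose library alone low. Of 16 cholesterol and steroid genes 1 was higher and 1 lower (12.5%, median -0.18). Hmgcs1, which feeds the mevalonate pathway, was at 23.5 FPKM at the high dose against 123 FPKM at the low dose, with 77.2 FPKM in control (log2 ratio -2.34). Insig1, which holds back activation of that pathway, was at 158 FPKM at the high dose against 73 FPKM at the low dose, with 60.2 FPKM in control (log2 ratio 1.10). The 2 thus stood in opposite order between the doses.

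Only 10 of 25 listed genes of the aryl hydrocarbon receptor and xenobiotic response were members. Among these 0 were past the rule, against 15.3% of all members, and 6 were within 1.5-fold. Their median log2 ratio was -0.07, which turned to 0.04 with the libraries scaled to equal summed FPKM. The receptor gene Ahr was at 5.85 FPKM at the high dose against 3.86 FPKM at the low dose, with 2.21 FPKM in control, just under the limit for members. Tiparp, a target of the receptor that dampens it, was at 122 FPKM at the high dose against 113 FPKM at the low dose, with 114 FPKM in control (log2 ratio 0.11). The receptor's partner Arnt, its repressor Ahrr and its targets Cyp1b1 and Nqo1 were below 5 FPKM in every library, so the rule was not applied to them. At these low levels Arnt and Nqo1 were more than 2-fold higher at the high dose than at the low dose. Arnt was at 3.02 FPKM at the high dose against 0.479 FPKM at the low dose, with 0.745 FPKM in control, Nqo1, a quinone reductase, at 3.9 FPKM at the high dose against 0.822 FPKM at the low dose, with 4.88 FPKM in control, and Cyp1b1 at 0.381 FPKM at the high dose against 0.109 FPKM at the low dose, with 0.083 FPKM in control. Nfe2l2, the regulator of antioxidant genes, was at 3.41 FPKM at the high dose against 7.75 FPKM at the low dose, with 3.39 FPKM in control (log2 ratio -0.99). Of 16 nuclear receptor and coregulator genes 1 was higher and 3 lower (25%, median -0.14). Esr2, estrogen receptor beta, was at 29.3 FPKM at the high dose against 7.09 FPKM at the low dose, with 9.76 FPKM in control (log2 ratio 1.91), with the high dose library alone high, while Esr1, estrogen receptor alpha, was below 5 FPKM in every library. Pgrmc1, a membrane component of progesterone signals, was at 0.384 FPKM at the high dose against 11.2 FPKM at the low dose, with 1.52 FPKM in control (log2 ratio -3.14).

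Signalling lists were small, and their calls were single genes. Of 10 TGF-beta and Smad genes 2 were higher and 2 lower (40%, against 15.3% of all members, median -0.10). These were Gdf9 and Bmp6 together with Smad3 and Smad4. Smad3, which carries signals of activin and of TGF-beta, was at 1.28 FPKM at the high dose against 10.7 FPKM at the low dose, with 8.42 FPKM in control (log2 ratio -2.36), and Smad4, the common partner, at 12.3 FPKM at the high dose against 3.92 FPKM at the low dose, with 1.57 FPKM in control (log2 ratio 1.43). Of 18 genes of the PI3 kinase and mTOR pathway 2 were lower (11.1%, median -0.03), Igf1r, the receptor of insulin-like growth factor 1, at 7.92 FPKM at the high dose against 34.1 FPKM at the low dose, with 17.6 FPKM in control, and Rps6kb1, the S6 kinase, at 10.9 FPKM at the high dose against 27.3 FPKM at the low dose, with 8.15 FPKM in control. Of 12 Hippo and Wnt genes 1 was lower (8.33%). This was the kinase Lats2, at 48.7 FPKM at the high dose against 131 FPKM at the low dose, with 61.1 FPKM in control. Of 14 apoptosis genes 1 was lower (7.14%). This was Bcl2l13, at 8.1 FPKM at the high dose against 20.7 FPKM at the low dose, with 5.08 FPKM in control. In lists this small, counts of 0 to 2 past the rule are near the share of all members. Housekeeping genes gave 0 of 12 past the rule and a median of 0.04, and the actin gene Actb was at 106 FPKM at the high dose against 128 FPKM at the low dose, with 48.3 FPKM in control.

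Tubulins and DNA repair genes had more members higher than lower, whereas of all members 5.36% were higher and 9.9% lower. Of 14 tubulin genes 4 were higher and 1 lower (35.7%, against 15.3% of all members), although the median was -0.02. Tubb5 was at 30.03 FPKM at the high dose against 4.92 FPKM at the low dose, with 26.4 FPKM in control (log2 ratio 2.39) and Tubb4b at 6.1 FPKM at the high dose against 29.6 FPKM at the low dose, with 16.6 FPKM in control (log2 ratio -2.11), so a pair of beta tubulins of closely related sequence stood in opposite order. Tubb2b was at 21.8 FPKM at the high dose against 5.23 FPKM at the low dose, with 9.01 FPKM in control, of which 1 row was at 17.6 against 0.162 FPKM and the other at 4.13 against 5.07 FPKM. Of 37 DNA repair genes 4 were higher and 0 lower (10.8%, below the 15.3% of all members, median -0.05). Prkdc, the DNA-dependent protein kinase, was at 26.9 FPKM at the high dose against 2.34 FPKM at the low dose, with 2.72 FPKM in control (log2 ratio 3.06). H2afx, listed at 0 at the low dose, and Apex1, short of the rule once adjusted for transcript length, were also higher. In the list of spindle migration and actin genes, the actin nucleator Spire1 was higher, at 15.5 FPKM at the high dose against 4.69 FPKM at the low dose, with 15.6 FPKM in control (log2 ratio 1.53), and cofilin, Cfl1, was lower, at 18.6 FPKM at the high dose against 71.8 FPKM at the low dose, with 76.6 FPKM in control (log2 ratio -1.90), among 2 higher and 2 lower of 26 members. Of 14 kinesins 1 was higher, Kif13a, at 39 FPKM at the high dose against 12.5 FPKM at the low dose, with 52.5 FPKM in control.

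Membrane traffic and transporter lists were near the background. Of 85 SNARE, coat and ESCRT genes 4 were higher and 6 lower (11.8%, median -0.08), among them the syntaxin Stx2, at 167 FPKM at the high dose against 51.9 FPKM at the low dose, with 19.97 FPKM in control, and Vamp8, a SNARE of late endosomes, at 25.3 FPKM at the high dose against 87.3 FPKM at the low dose, with 35.3 FPKM in control. Of 17 Rab genes 2 were higher and 1 lower (17.6%), with Rab32 at 10.4 FPKM at the high dose against 1.42 FPKM at the low dose, with 6.27 FPKM in control and Rab1a at 1.2 FPKM at the high dose against 9.27 FPKM at the low dose, with 1.65 FPKM in control. Of 54 solute carriers 4 were higher and 4 lower (14.8%, median -0.10). Of 63 Tmem genes 6 were higher and 7 lower (20.6%, median -0.09), with Tmem131 at 2.46 FPKM at the high dose against 67.7 FPKM at the low dose, with 81.1 FPKM in control, whose larger row was listed at 0 at the high dose, and Tmem60 at 129 FPKM at the high dose against 13.4 FPKM at the low dose, with 17.9 FPKM in control (log2 ratio 3.18). Among RNA classes, 18 names of small noncoding RNAs or their longer host transcripts gave 1 higher and 3 lower (22.2%, median 0.10). The host transcripts among them were Mir99ahg, Snhg18 and Snhg6, all short of the rule. Beside Rn7s2, the lower ones were Rn7sk, listed at 0 at the high dose against 11.9 FPKM at the low dose, Mir694 and Mir1982. Of 28 names matched by the pattern for opposite-strand transcripts 1 was lower (3.57%), Sp3os, short of the rule on its largest row alone. The pattern also took in protein-coding genes whose names only look alike, such as Nos1, Pros1, Nanos1, Nanos2, Mios, Mocos and Minos1. The share is therefore not that of opposite-strand transcripts alone.

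The share of members past the rule differed with several of their features. Among these, the number of rows joined and the mean level come from the same rows and values that the rule used. A gene name could join several rows, and 2418 members had more than 1. Among members of 1 row 4.59% were higher and 6.44% lower, among those of 2 rows 7.03% and 14.6%, and among those of 3 or more rows 6.09% and 17.4%, with median log2 ratios of -0.01, -0.10 and -0.24. Within such genes the rows often differed. Of 98 higher members with at least 2 rows of 1 FPKM or more, the row second in size was past the rule the same way in 17, within 1.5-fold in 60 and past it the other way in 9. Of 256 such lower members the counts were 74, 148 and 3. The rows of a gene name are assembled loci without positions in the tables used here, so which part of a gene each covers was not tested. The largest row alone was past the rule in the same direction for 340 of the 347 higher and 600 of the 641 lower members.

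Longer genes were lower more often. Over 5 groups of nearly equal size by the length of the longest GENCODE transcript, known for 98.2% of them, the median ratio was 0.02, 0.01, -0.07, -0.08 and -0.14 from the shortest (median 810 bases) to the longest (6459 bases), and the share of lower members was 9.37% in the shortest and 13.3% in the longest. Fewer members were past the rule at the highest levels. Of 269 members with a mean of 200 FPKM or more, 2.23% were higher and 4.83% lower, against 5.76% and 9.52% of the 2291 members of 5 to 10 FPKM. Single-exon genes were past the rule more often, with 9.92% higher and 16.7% lower of 383, against 5.04% and 9.54% of 5973 genes with several exons. Processed pseudogenes gave 10.2% higher and 16.2% lower of 216, and protein-coding genes 5.01% and 9.6% of 5511. By chromosome the share of higher members ran between 2.6% on chromosome 15 and 8.15% on chromosome 18, and that of lower members between 7.14% on chromosome 12 and 13.2% on chromosome 4. How far each of these features bears on the others was not tested.

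**Figure D5:**
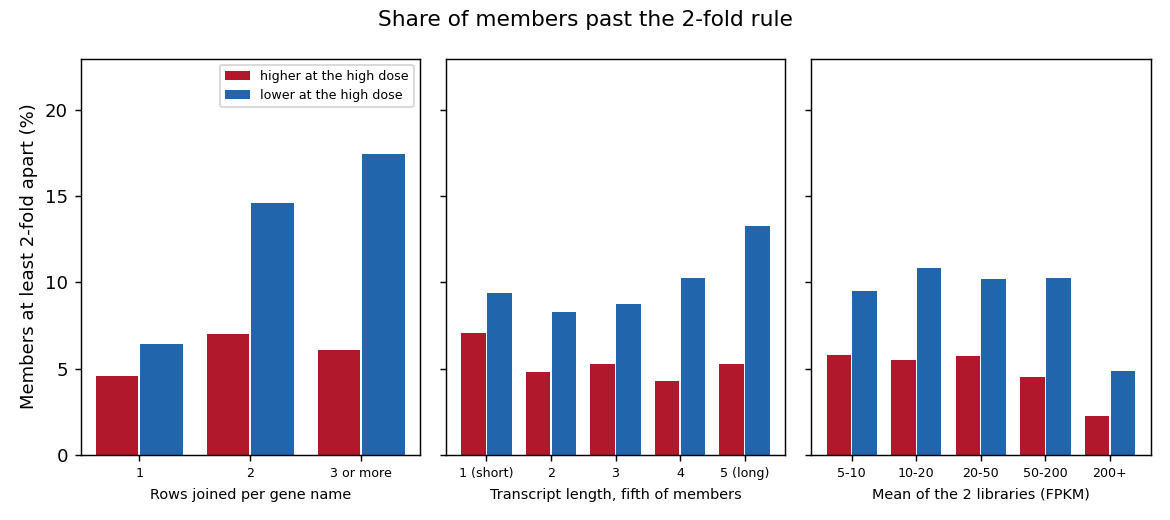
Percentage of members past the 2-fold rule, higher or lower at the high dose (bars, y axis in %), by the number of rows joined per gene name, by group of transcript length and by mean FPKM of the 2 libraries. The share of lower genes is 6.44% for genes of 1 row and 17.4% for genes of 3 or more, and both shares are smallest at 200 FPKM or more.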

How the data were processed

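RNA of oocytes was sequenced in 3 libraries, 1 per group by the exposure label, and the control value is given beside the comparison of the doses. HISAT2, StringTie and the mouse build mm10 are named in the submitters' processing notes, while their versions and settings, the annotation and the strandedness were not given in the sources used here. Each deposited table holds FPKM per row, as its file header says, beside an identifier and a gene name. Tests on counts need counts and were not run.

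From these values, rows of the same gene name were summed. Rows without a gene name held 19.3, 21.9 and 15.4% of the summed FPKM of the high dose, low dose and control libraries (393864, 424756 and 377415) and were left out. The ratio was log2 of high plus 1 over low plus 1 FPKM, among names averaging 5 FPKM or more, and 2-fold was the limit for a count. A set of 61 identifiers was named differently in the control table, which left 18 members without a safe control value, and 26 members had no row in it. Depth was taken from the most common low product of FPKM and transcript length, assumed to be 1 read, and whether products are whole multiples was not tested.

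Named genes were the 12 largest ratios in each direction with a curated symbol, above 0 in both libraries and past the limit on the largest row. To these came the 5 largest in each direction that rest on a 0, the 10 most abundant past the limit in each direction, up to 4 of the largest ratios of each list and a fixed set of oocyte and receptor genes. Other list members past the limit, and those named to complete a count, were chosen after their values were seen. A few listed genes are not reported here. Members, the 66 functional and the 8 marker lists were chosen with earlier results of these data known. A pattern in the list of genes on the opposite strand was changed after the data were seen, and it still took in other genes.

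Positions, lengths, exons and classes came from GENCODE release M21 on GRCm38, which is mm10, and promoters from RefSeq on GRCm38. Alternatives were a pseudocount of 0.1 or 5 FPKM, a mean of 1 or 20 FPKM or none, 3 scalings, the largest row or 1-row genes only, adjustment for length, a 3-fold limit and, chosen after seeing the data, genes of several exons and genes above 0 in both libraries. The counting was tested on simulated data. Python 3.11.15, pandas 2.3.3, NumPy 2.4.6 and Matplotlib 3.10.9 were used.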

Additional observations from a re-analysis of the deposited data

Results flagged for a closer look

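Assembled loci without a gene name lie outside the members, and 2418 of them averaged 5 FPKM or more over the 2 exposed libraries. Of these 10.2% were at least 2-fold higher at the high dose and 17.9% lower, against 5.36% and 9.9% of the members, with a median log2 ratio of -0.07. Loci above 0 in both exposed libraries and also unnamed in control were ranked by ratio. The pair with the largest positive ratios was taken from those higher at the high dose than in control. The pair with the largest negative ratios was taken from those higher at the low dose than in control. By this choice the larger exposed value is above control in each locus given. They are given because no gene name brings them into the comparison. MSTRG.799 was at 233 FPKM at the high dose against 0.489 FPKM at the low dose and was listed at 0 in control (log2 ratio 7.30). MSTRG.14892 was at 188 FPKM at the high dose against 1.04 FPKM at the low dose, with 121 FPKM in control (log2 ratio 6.53). MSTRG.10731 was at 1.07 FPKM at the high dose against 384 FPKM at the low dose, with 51.6 FPKM in control (log2 ratio -7.54). MSTRG.15202 was at 0.539 FPKM at the high dose against 195 FPKM at the low dose, with 60.6 FPKM in control (log2 ratio -6.99). The tables used here give these loci no position, so what they are was not tested.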

How the results depend on the processing

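The excess of lower over higher genes was present under each of the 14 alternatives, with higher genes making up between 33.8 and 41.6% of those past the limit. Counts that moved by over 1.5 times are given as higher and lower. A mean of 1 FPKM or more gave 753 and 1233 genes, a mean of 20 FPKM or more 125 and 245, and no filter 936 and 1542, since other numbers of genes enter. Genes with 1 row only gave 186 and 261, and the 3-fold limit gave 199 and 342. The median log2 ratio of all members was 0.0495 in place of -0.0517 with the libraries scaled to equal summed FPKM, a shift of 0.101, so ratios of up to that size have no settled sign. None of the 185 named genes past the limit changed direction under an alternative that gave it a value. A pseudocount, a filter of genes or another limit cannot turn the sign of a ratio. The scaling to equal summed FPKM moved the median by 0.101, while these ratios were at least 1 in size. Genes named for the largest ratios had to be past the limit on their largest row, so that setting could not turn them. In those cases the result was set in advance. Of the 185 named genes, the largest row alone took 4 below the limit, the scaling to equal summed FPKM 7 and trimmed mean scaling 5. Adjustment for length took 7 below it, a pseudocount of 5 FPKM 26 and the 3-fold limit 59. No paired analysis was possible because each group had 1 library, and for the same reason no library could be left out.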
